A study of Homo sapiens with 60 samples.

Results

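A group of 6 genes that hold back mTORC1 signalling or its output was followed through a graded activation of the integrated stress response (ISR). They were the sestrins SESN1, SESN2 and SESN3, DDIT4 (which encodes REDD1), and the 4E-binding proteins EIF4EBP1 and EIF4EBP2. The genes were chosen by symbol and are 6 of the 57665 genes in the deposited tables. mTORC1 is the kinase complex that turns on protein synthesis and growth when amino acids and growth factors are present. Sestrins bind GATOR2 and so restrain the Rag GTPase branch that brings mTORC1 to the lysosome, and SESN2 is a leucine sensor. REDD1 acts through the TSC complex, which switches off the mTORC1 activator RHEB. The 4E-BPs bind the cap-binding factor eIF4E when mTORC1 is low and so block cap-dependent initiation of translation. DDIT4, SESN2 and EIF4EBP1 are known targets of ATF4, the transcription factor of the ISR, whereas SESN1 is known as a p53 target and SESN3 as a FOXO target.

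The cells were U2OS, an established human osteosarcoma line, labelled WT and stably expressing Dmr-PERK, the eIF2 alpha kinase domain of mouse PERK joined to a DmrB domain that pairs when the dimerizer AP20187 is added. All 60 libraries carried this construct, including the 6 untreated ones, and the labels describe 1 cell line. Treated cells received 0.01, 0.2 or 3 nM dimerizer (the middle dose rounded as in the study's design text) and were collected after 1 h, 2 h, 4 h, 8 h, 16 h or 24 h, with 3 libraries in each of the 18 combinations. The untreated cells were 2 sets of 3 libraries labelled 0 h, so no untreated culture was matched to each time, and hours with dimerizer and hours in culture after seeding cannot be told apart. Wells were sampled in triplicate per the labels, which do not say whether replicates came from separate cultures, so p-values measure the spread between these libraries, which may be technical. In RNA from a whole well, a change in every cell and a change in a share of the cells cannot be told apart.

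Untreated set 1 and the 0.01 and 0.2 nM libraries held 5598803 to 10367667 counts, and untreated set 2 and the 3 nM libraries held 20713981 to 28436445, so depth follows dose between 0.2 and 3 nM. All 6 genes passed the low-count filter that kept 18040 genes, and the fewest counts of any of them in a library was 59, for SESN1. Mitochondrially encoded mRNAs took 8.84% ± 0.614 of counts in untreated set 1 (SD, n = 3) and 4.44% ± 0.053 in set 2, and group means of 3.37% to 5.43% after treatment, and their part in the results was not tested. The sets differed in 28.9% of the genes tested, among them SESN2, EIF4EBP1 and DDIT4 of the 6. VIM, COL1A1, SPARC and RUNX2, which mark the mesenchymal and bone lineage, were present (RUNX2 at 20.6 to 24.3 TPM in untreated libraries), and PTPRC, HBB, PECAM1 and CDH5 of blood and endothelium were under 1 TPM there. CD68, of macrophages, was at 0.51 to 1.43 TPM untreated and reached 8.9 over all libraries. Of the epithelial markers, the keratins KRT8 and KRT18 were high (177 to 293 and 567 to 683 TPM), and EPCAM and CDH1 were low (2.57 to 5.99 and 0.808 to 3.97). A pair of libraries stood apart from their mates in the chi-square per degree of freedom between replicate counts. Replicate 1 of 3 nM 4 h was at 21.2 and 21.9 and replicate 3 of 3 nM 2 h at 9.04 and 7.72, against at most 3.17 in the other 56 pairs. Without the first, the 3 nM 4 h change against untreated was 3.52 for DDIT4 and -1.38 for SESN1, with 3.57 and -1.34 when it is kept, and none of the 30 values of the 6 genes that use it lost its call. Without the second, 2 of 21 did, the EIF4EBP1 change at 3 nM 2 h (-0.13, from -0.18) and the DDIT4 difference between 3 and 0.2 nM at 2 h (-0.10, from -0.14).

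Promoter sequences of 3 of the genes are shown because DDIT4 and SESN2 rose together at every dose whereas EIF4EBP2 fell. Each is the 250 bases before the RefSeq start on GRCh38.p14, read 5′ to 3′ along the gene. Capitals mark CCAAT on either strand (ATTGG as read here) and ACGTG, the core of the hypoxia response element.
DDIT4 promoter, chr10:72273674-72273923, plus strand: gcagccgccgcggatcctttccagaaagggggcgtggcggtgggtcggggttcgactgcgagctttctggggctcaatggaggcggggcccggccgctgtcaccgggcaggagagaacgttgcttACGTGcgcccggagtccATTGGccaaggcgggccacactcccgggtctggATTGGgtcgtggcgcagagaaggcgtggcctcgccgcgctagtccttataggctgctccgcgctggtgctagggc
SESN2 promoter, chr1:28259268-28259517, plus strand: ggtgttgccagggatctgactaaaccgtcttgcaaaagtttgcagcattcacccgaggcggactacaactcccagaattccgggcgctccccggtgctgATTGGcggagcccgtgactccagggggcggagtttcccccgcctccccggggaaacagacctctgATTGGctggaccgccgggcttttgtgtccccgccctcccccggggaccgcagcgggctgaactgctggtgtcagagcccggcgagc
EIF4EBP2 promoter, chr10:70403895-70404144, plus strand: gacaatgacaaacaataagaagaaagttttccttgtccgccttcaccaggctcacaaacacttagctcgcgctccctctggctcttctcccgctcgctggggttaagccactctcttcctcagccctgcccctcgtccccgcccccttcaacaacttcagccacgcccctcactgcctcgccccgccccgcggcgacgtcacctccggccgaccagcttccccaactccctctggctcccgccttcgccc

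The DDIT4 window held CCAAT on the minus strand at bases -75 to -71 and -108 to -104 from the start and ACGTG at -125 to -121. The SESN2 window held CCAAT on the minus strand at -86 to -82 and -151 to -147. The EIF4EBP2 window held neither motif. SESN1, which also fell, has 3 windows, and CCAAT was at -90 to -86 in one and at -75 to -71 in another, so the motif does not separate the genes that rose from those that fell. Among 35116 promoter windows of that length in the RefSeq table, 32% held CCAAT at least once, 9.5% held it 2 or more times and 18.5% held ACGTG. TGATGNAA, the composite element bound by ATF4 with a C/EBP partner, was searched on both strands and occurred in 3.1% of windows. It was in none of the 7 windows of 5 of the 6 genes. EIF4EBP1 was left out, because the search skipped its chromosome for the genes named here, so its promoter was not read. The element was present at -68 to -61 in 1 window of ASNS, a classic ATF4 target. The other ASNS window and those of the ISR genes DDIT3, TRIB3 and ATF4 did not hold it. CCAAT and ACGTG were picked after the windows had been read, the motifs do not overlap one another in these windows, and a match is a description of letters, not a binding site.

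In GENCODE release 29 on GRCh38, DDIT4 spans chr10:72273920-72276036 (plus strand), EIF4EBP2 chr10:70404379-70428618 (plus), EIF4EBP1 chr8:38030341-38060365 (plus), SESN2 chr1:28259527-28282491 (plus), SESN3 chr11:95165513-95232541 (minus) and SESN1 chr6:108986437-109094819 (minus). Values are summed over each gene's transcripts. Antisense genes overlap DDIT4, SESN1 and SESN3 in that annotation, and whether the counting used strand is not given in the sources used here. Pseudogene copies of EIF4EBP1 and EIF4EBP2 took at most 5 counts in any library.

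Against untreated, DDIT4, SESN2 and EIF4EBP1 rose at all 3 doses, after an early dip for EIF4EBP1. SESN3, EIF4EBP2 and SESN1 fell at all 3 doses, SESN3 after a small rise at 1 h. Levels are CPM, read counts scaled by library size after TMM normalization, and changes are log2 fold changes against the mean of both untreated sets, tested with edgeR's quasi-likelihood F test and adjusted by the Benjamini-Hochberg method over all 18040 genes, with a threshold of 0.05. At 0.01 nM, 2, 6, 6, 5, 5 and 4 of the 6 genes passed in either direction at 1, 2, 4, 8, 16 and 24 h, beside 28.1%, 43.5%, 52%, 53.8%, 52.7% and 43.2% of all genes tested. At 0.2 nM the counts were 4, 5, 6, 6, 6 and 6, beside 35.2%, 44.9%, 59.3%, 63.7%, 66.4% and 65.5%. At 3 nM all 6 passed at every time, beside 43.7%, 50.5%, 66.8%, 72.5%, 76.1% and 77.1%. These shares are high, so a call by itself does not set a gene apart from the rest. Over the 36 gene and time pairs of each dose, 15 were higher and 13 lower at 0.01 nM, 17 and 16 at 0.2 nM, and 17 and 19 at 3 nM. On the deposited TPM values (log2(TPM + 1), limma) the lower calls were 7 at 0.01 nM and 10 at 0.2 nM, and on that scale the median of all genes against untreated lay 0.06 to 0.18 higher.

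**Figure D1:**
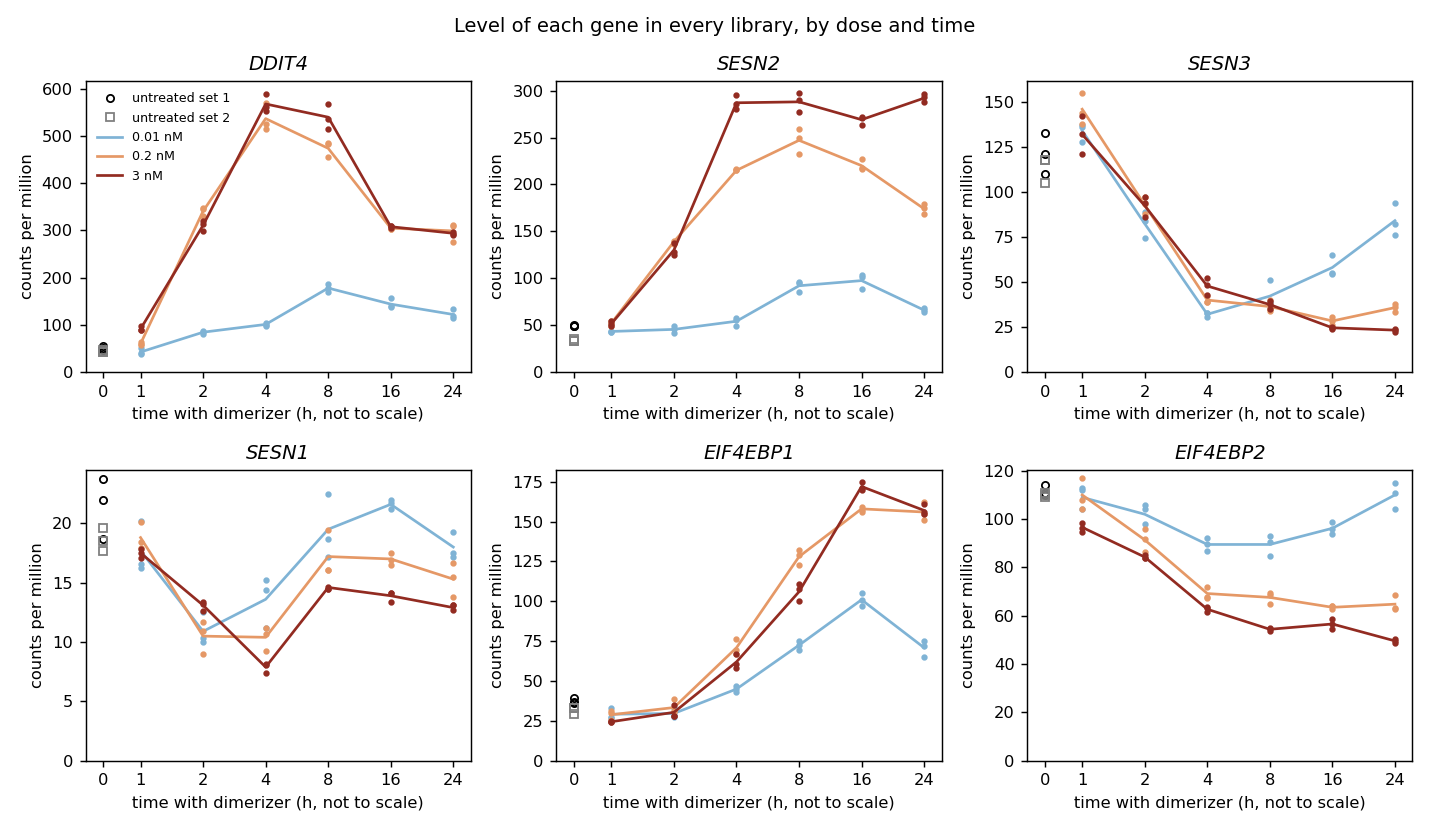
CPM (y axis) of each of the 6 genes against hours with dimerizer (x axis, not to scale) in all 60 libraries; points are libraries, lines join the means of 3, and open symbols at 0 h are the untreated sets. DDIT4 is highest at 4 h at the upper doses and SESN3 returns from 32.1 at 4 h to 84.1 at 24 h at 0.01 nM, while at 3 nM it ends at 23.3.

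**Figure D2:**
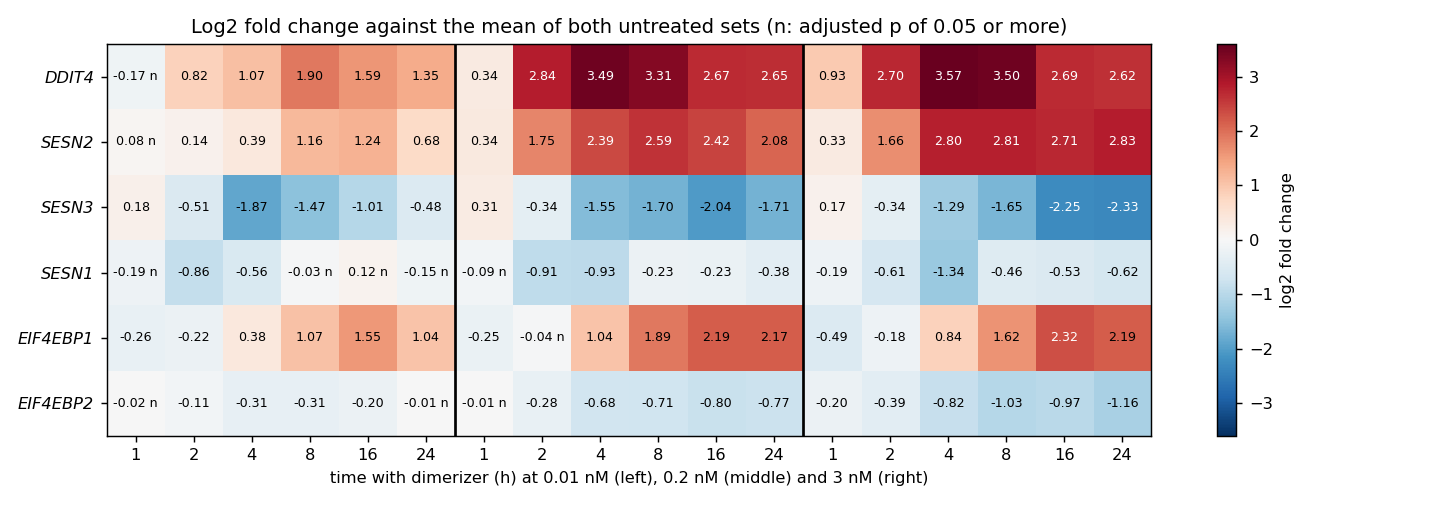
Log2 fold change of each gene (rows) at each dose and time (columns) against the mean of both untreated sets, printed in each cell and coloured from blue (lower) to red (higher); n marks an adjusted p of 0.05 or more. DDIT4 has the highest value, 3.57 at 3 nM 4 h, and SESN3 the lowest, -2.33 at 3 nM 24 h.

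DDIT4 had the highest peak of the 6. Untreated libraries held 51.5, 46.5 and 55.8 CPM in set 1 and 47.1, 43.6 and 42.7 in set 2. At 3 nM, the libraries held 97.4, 88.4 and 88.3 CPM at 1 h, all above every untreated library. They held 321, 314 and 298 at 2 h and 589, 561 and 553 at 4 h, with no overlap between these times. REDD1, its product, is a short-lived protein. The change at 4 h was 3.57 (SE 0.0456, adjusted p = 6.11e-54), which is 11.9-fold. At 8 h the libraries held 516, 537 and 567, overlapping those of 4 h (change -0.07, adjusted p = 0.22). DDIT4 then fell to 310, 309 and 305 at 16 h, a step of -0.81 (adjusted p = 2.96e-22), and held 297, 293 and 290 at 24 h, which was still 6.14-fold above untreated.

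The middle dose gave nearly the same course, with 62.8, 60.5 and 57.1 CPM at 1 h, 348, 345 and 331 at 2 h and 516, 569 and 526 at 4 h. The 4 h libraries were the highest of that dose and stood clear of the 8 h ones (455, 483 and 485), by a step of -0.18 (adjusted p = 0.00345), which on TPM was also -0.18 but did not pass (adjusted p = 0.0788). At 16 and 24 h they held 303, 308 and 304 and 276, 312 and 309. At 0.01 nM the rise was later and smaller. The libraries held 50.4, 37.5 and 39.8 CPM at 1 h, 2 of them below every untreated library, then 87.6, 80.5 and 85.2 at 2 h and 100, 104 and 97.9 at 4 h. The peak came at 8 h, with 169, 186 and 178 and a change of 1.90 (SE 0.0545, adjusted p = 2.6e-36), 3.72-fold. It was followed by 137, 139 and 157 at 16 h and 114, 133 and 118 at 24 h. From the lowest to the highest dose the highest mean thus moved from 8 h to 4 h, though the 4 and 8 h libraries overlapped at 3 nM. Its height went from 178 ± 8.33 to 537 ± 27.9 and 568 ± 18.9 CPM (mean ± SD, n = 3).

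SESN2, the stress-inducible sestrin, also rose but did not peak and fall in the same way. Untreated set 1 held 49.2, 49 and 50.6 CPM and set 2 35.3, 33.6 and 33.4, so the sets did not overlap and differed by -0.54 (SE 0.0614, adjusted p = 3.69e-10) on the log2 scale. At 3 nM the libraries held 54.4, 49.4 and 51 CPM at 1 h, 138, 125 and 128 at 2 h and 295, 286 and 280 at 4 h. From there SESN2 stayed within a narrow band, with 277, 297 and 290 at 8 h, 263, 271 and 272 at 16 h and 296, 293 and 288 at 24 h. The change between 4 and 24 h was 0.03 (95% interval -0.05 to 0.10, adjusted p = 0.544). The change against untreated at 24 h was 2.83 (SE 0.0376, adjusted p = 5.39e-54), or 7.1-fold. The last step, from 16 to 24 h, was 0.12 (adjusted p = 0.0156), after one of -0.10 (adjusted p = 0.0211) from 8 to 16 h, and each lost the threshold in 3 of the runs that left out 1 library.

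At 0.2 nM SESN2 held 52.2, 49.3 and 54.7 CPM at 1 h, 140, 137 and 139 at 2 h and 215, 216 and 215 at 4 h. It was highest at 8 h, with 249, 232 and 259, and then fell in both later steps, to 216, 227 and 218 at 16 h and 169, 179 and 175 at 24 h (last step -0.34, adjusted p = 8.12e-08). At 0.01 nM, the libraries of 1 and 2 h (44.1, 43.2 and 42.7, then 49.3, 45.8 and 41.5) lay between the untreated sets or inside the range they span together. The change at 2 h was 0.14 against both sets, but -0.13 against set 1 alone, and it lost the threshold in 6 of the runs that left out 1 library. Levels were 57.9, 55.3 and 49.3 at 4 h, 95, 96 and 85.1 at 8 h and 88.8, 101 and 103 at 16 h, the peak, where the change was 1.24 (SE 0.0496, adjusted p = 1.9e-29). They returned part of the way by 24 h, to 65.7, 68.1 and 64.3, a step of -0.56 (adjusted p = 1.18e-11). Against set 1 alone, the 4 h change at 0.01 nM (0.39 against both sets) was 0.12 and the 1 h changes at 0.2 and 3 nM (0.34 and 0.33) were 0.07 and 0.06, none of them past the threshold.

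SESN3 moved the opposite way, after a small early rise. Untreated libraries held 110, 121 and 133 CPM in set 1 and 105, 118 and 118 in set 2. At 1 h the changes were 0.18, 0.31 and 0.17 from the lowest to the highest dose, and those at 0.01 and 3 nM did not pass against untreated set 1 alone. At 3 nM, SESN3 then fell through 16 h, to 86.1, 94 and 97.2 at 2 h, 42.7, 48.5 and 52.1 at 4 h, 39.5, 37.9 and 35 at 8 h and 24.3, 25.2 and 24.1 at 16 h. At 24 h it held 23.5, 24.1 and 22.3, with a change of -2.33 (SE 0.0711, adjusted p = 2.56e-36), 5.03-fold lower. At 0.2 nM it held 87.8, 97.1 and 93.3 at 2 h, 39, 38.7 and 42.2 at 4 h, 35.2, 40.1 and 33.8 at 8 h, 30.7, 28.6 and 25.9 at 16 h and 36.4, 37.6 and 33.4 at 24 h. The 2 h change at that dose, -0.34 on counts, was 0.10 on TPM and so turned direction, and the 2 h changes at 0.01 and 3 nM, -0.51 and -0.34 on counts, were -0.28, adjusted p = 0.0958, and -0.09, adjusted p = 0.684, on TPM.

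At 0.01 nM SESN3 fell and then came back. The libraries held 74.4, 84.1 and 88.7 CPM at 2 h and 32.9, 30.6 and 32.8 at 4 h, the lowest point, with a change of -1.87 (SE 0.0868, adjusted p = 2.14e-26). The turn came after 4 h. They held 36.6, 51 and 39 at 8 h, 54.9, 64.8 and 54.6 at 16 h and 82.2, 76.2 and 93.9 at 24 h, and each of the 3 upward steps passed the test on counts. On TPM the first of them, from 4 to 8 h, was 0.19 (adjusted p = 0.423) against 0.40 on counts, and the other 2 passed. The recovery from 4 to 24 h was 1.39 (SE 0.101, adjusted p = 7.86e-18), whereas over the same interval the change was -0.16 (adjusted p = 0.211) at 0.2 nM and -1.04 (adjusted p = 2.68e-17) at 3 nM. At 4 h the weakest dose gave the lowest SESN3 of the 3, with 0.2 nM above it by 0.32 (adjusted p = 0.0385). The difference lost the threshold when any 1 of the 6 libraries of the compared groups was left out, with an adjusted p of up to 0.152.

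The size of the SESN3 fall depends on the unit. On TPM, which divides by the transcript length that the estimation assigned, untreated libraries held 19.9, 18.7 and 25.2 TPM in set 1 and 21.3, 23.4 and 22 in set 2, and the 3 nM 24 h libraries 8.01, 6.91 and 7.25. The change at 3 nM 24 h was -1.43 (adjusted p = 1.49e-13) on log2(TPM + 1) with limma, against -2.33 on counts, and at 3 nM 4 h it was -0.61 (adjusted p = 9.74e-05) against -1.29. At 0.01 nM 24 h it was -0.18 (adjusted p = 0.269) against -0.48, past the threshold on counts only. On that scale the difference between 3 and 0.2 nM at 24 h did not pass (-0.31, adjusted p = 0.106, against -0.62 on counts). SESN3 counts per TPM, scaled to the median gene and to untreated, were 0.968 ± 0.0874 in untreated set 1, 1.01 ± 0.0486 in set 2, 0.661 ± 0.0736 at 3 nM 4 h and 0.603 ± 0.0539 at 3 nM 24 h (SD, n = 3). The same ratio for DDIT4, SESN2 and EIF4EBP2 at 3 nM 24 h was 1.02, 1.01 and 1.01.

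SESN1, the sestrin with the fewest counts, dipped early and then recovered in full or in part. Untreated libraries held 18.7, 23.7 and 22 CPM in set 1 and 19.6, 17.7 and 18.5 in set 2. At 0.01 nM it was lowest at 2 h, with 10.3, 10 and 12.5 and a change of -0.86 (SE 0.094, adjusted p = 2.21e-11). It held 15.2, 14.4 and 11.2 at 4 h, 18.7, 22.5 and 17.2 at 8 h, 21.2, 21.7 and 22 at 16 h and 19.3, 17.2 and 17.5 at 24 h, and none of the changes from 8 h on passed the test. The 2 and 4 h libraries at 0.01 nM overlapped, with a step of 0.30 (adjusted p = 0.0548), so the time of the low point is not resolved there. At 3 nM the low point was at 4 h, with 8.1, 8.15 and 7.43 and a change of -1.34 (SE 0.0762, adjusted p = 5.29e-23), 2.53-fold lower. All 3 libraries were below every library of every other time at that dose. From 4 to 8 h it rose by 0.89 (adjusted p = 9.9e-14) to 14.6, 14.5 and 14.5. At 24 h it held 13.1, 12.7 and 13.1, a change of -0.62 (SE 0.0698, adjusted p = 7.15e-12). At 0.2 nM it held 11.7, 10.9 and 9.03 at 2 h and 11.2, 9.27 and 10.7 at 4 h, which overlapped (step -0.025, adjusted p = 0.909). It then held 16.1, 19.4 and 16.1 at 8 h and 15.5, 16.7 and 13.8 at 24 h. On TPM the changes at 0.2 nM 8 h and 3 nM 1 h, -0.23 and -0.19 on counts, turned to 0.12 and 0.06, and the changes at 0.2 nM 16 and 24 h (-0.23 and -0.38) no longer passed.

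SESN2 took over most of the sestrin transcripts at the upper doses. Untreated, the 3 sestrins summed to 49.6 ± 4.72 TPM in set 1 and 47.4 ± 0.546 in set 2 (mean ± SD, n = 3). SESN3 made up 42.7% ± 3.08 and 46.8% ± 1.74 of that sum, SESN2 37.5% ± 2.12 and 31% ± 0.943, and SESN1 the rest. At 3 nM 24 h the sum was 135 ± 1.43 TPM, of which SESN2 was 89.8% ± 0.52 and SESN3 5.47% ± 0.361. At 0.2 nM the sum was highest at 8 h, 133 ± 4.3. At 0.01 nM the sum stayed between 38.7 ± 3.26 at 4 h and 66.9 ± 3.18 at 16 h, while the SESN2 share went from 32.6% ± 2.18 at 1 h to 66.7% ± 1.95 at 8 h and 49.6% ± 0.586 at 24 h. These sums and shares are descriptions and were not tested.

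**Figure D3:**
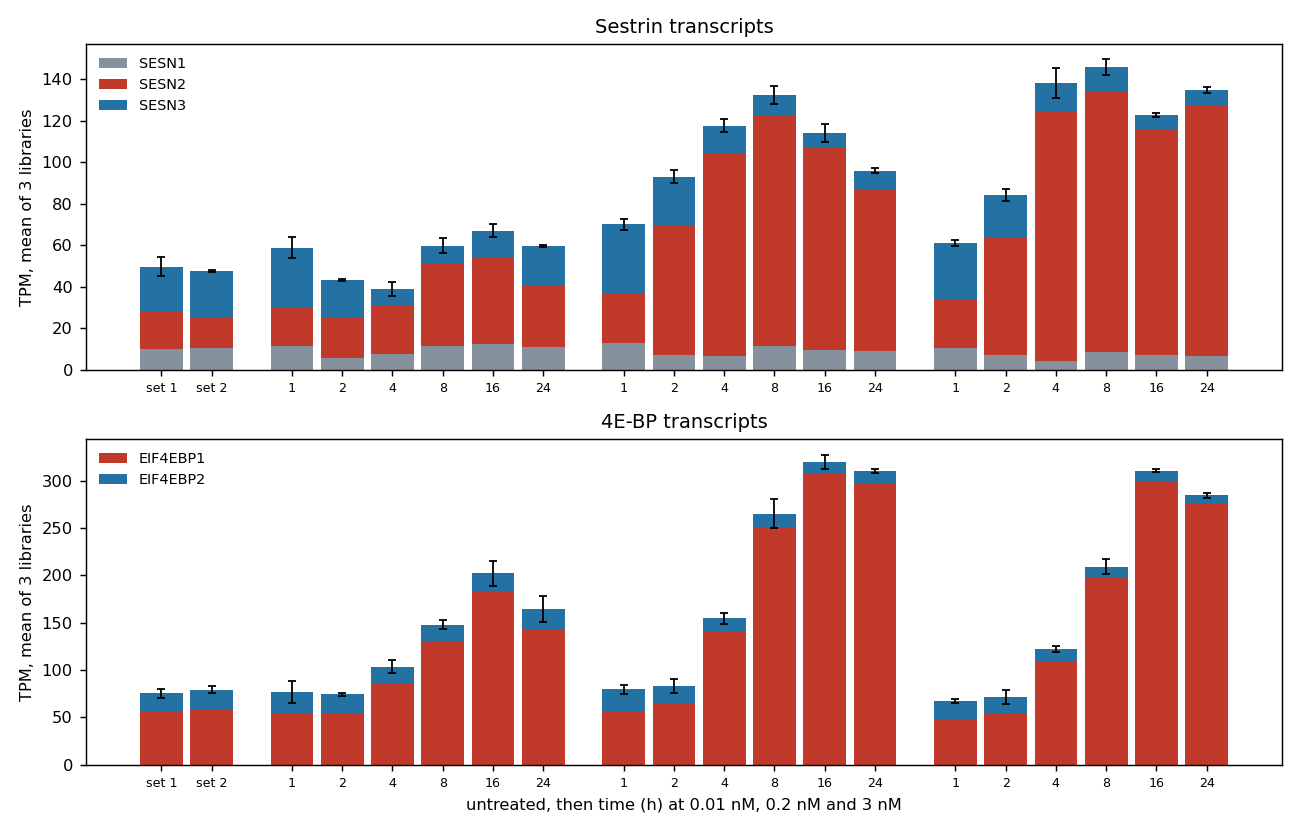
Summed TPM (y axis) of the 3 sestrins (upper panel) and of EIF4EBP1 and EIF4EBP2 (lower panel) in each untreated set and at each dose and time (x axis); bars are stacked means of 3 libraries and error bars the SD of the sum. SESN2 fills 89.8% of the sestrin bar and EIF4EBP1 96.7% of the 4E-BP bar at 3 nM 24 h.

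EIF4EBP1, the 4E-BP that ATF4 is known to induce, first dipped and then rose. Untreated libraries held 39.6, 36 and 36.8 CPM in set 1 and 32.9, 29.3 and 32.8 in set 2, without overlap (difference -0.24, adjusted p = 0.0225). At 1 h at 3 nM the libraries held 24.4, 24.4 and 24.8, below every untreated library, with a change of -0.49 (SE 0.0646, adjusted p = 5.93e-09). At 2 h they held 35.1, 28 and 28.1, and then 67.2, 60.7 and 58 at 4 h and 100, 111 and 108 at 8 h. The peak was at 16 h, with 170, 175 and 171 and a change of 2.32 (SE 0.0509, adjusted p = 2.97e-43), 4.98-fold. At 24 h they held 161, 156 and 155, a last step of -0.13 (adjusted p = 0.0549) although the libraries of the 2 times did not overlap. At 0.2 nM EIF4EBP1 held 76.1, 69.6 and 67 at 4 h, 129, 123 and 132 at 8 h, 159, 156 and 157 at 16 h and 151, 162 and 155 at 24 h, the last 2 overlapping. At 0.01 nM it held 47.1, 44.8 and 43.2 at 4 h, 72.5, 69.7 and 75.3 at 8 h and 101, 97.1 and 105 at 16 h, and fell by 24 h to 75.4, 71.9 and 65.4 (step -0.51, adjusted p = 5.27e-08). The early dips at 1 h (0.01 and 0.2 nM) and at 2 h (0.01 and 3 nM) did not pass against untreated set 2 alone or on TPM.

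EIF4EBP2 fell at the upper doses, mostly by 4 h at 0.2 nM and by 8 h at 3 nM. Untreated libraries of both sets held 109 to 114 CPM and overlapped. At 3 nM the libraries held 96.5, 98.4 and 94.8 at 1 h, 83.8, 84 and 85.1 at 2 h, 61.5, 63.1 and 63.5 at 4 h and 54.8, 53.9 and 54.4 at 8 h. After 56.6, 54.4 and 58.7 at 16 h they reached 48.6, 50.5 and 49.7 at 24 h, with a change of -1.16 (SE 0.0352, adjusted p = 2.4e-36), 2.23-fold lower. At 0.2 nM EIF4EBP2 held 67.9, 67.5 and 72.1 at 4 h and 63.1, 62.7 and 68.7 at 24 h, and no step after 4 h passed the test. At 0.01 nM it dipped to 86.6, 92 and 89.8 at 4 h and 84.7, 90.7 and 93.2 at 8 h and was back at 104, 111 and 115 at 24 h, where the change against untreated was -0.01 (95% interval -0.08 to 0.06, adjusted p = 0.864). On TPM the changes at 0.01 nM 2 and 16 h, 0.2 nM 2 h and 3 nM 1 h, which were -0.11, -0.20, -0.28 and -0.20 on counts, did not pass. The step from 4 to 8 h at 3 nM, -0.21 on counts, was -0.13 on TPM and did not pass (adjusted p = 0.115). The recovery of EIF4EBP2 from 4 to 24 h at 0.01 nM was 0.30 (adjusted p = 1.27e-07).

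Summed, the 4E-BP transcripts stood above both untreated sets from 4 h on at every dose, and EIF4EBP1 was the larger of the pair per length. Untreated, EIF4EBP1 made up 74.5% ± 1.28 of a sum of 75.7 ± 4.81 TPM in set 1 and 72.4% ± 1.39 of 79.3 ± 4.1 in set 2. At 24 h it made up 86.1% ± 1.91 of 165 ± 13.8 at 0.01 nM, 95.7% ± 0.267 of 310 ± 2.48 at 0.2 nM and 96.7% ± 0.0929 of 284 ± 2.68 at 3 nM. Another gene of the family, EIF4EBP3, did not pass the test at 3 nM 24 h and changed by 0.39 with an SE of 0.539. Per length, the order in untreated libraries was EIF4EBP1 (51.4 to 61.4 TPM), DDIT4 (36.7 to 47.7), SESN3 (18.7 to 25.2), EIF4EBP2 (18.8 to 22.2), SESN2 (14.5 to 19.3) and SESN1 (8.33 to 10.7). The ranges of SESN3 and EIF4EBP2 overlapped, as did those of EIF4EBP2 and SESN2, and the other neighbours stood apart.

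The peak times, taken as the time of the highest mean CPM, were earlier at the upper doses for DDIT4 and the same at all 3 doses for EIF4EBP1. Those of SESN2, and that of DDIT4 at 3 nM, were not well resolved. From 0.01 to 0.2 and 3 nM, DDIT4 peaked at 8, 4 and 4 h, SESN2 at 16, 8 and 24 h, and EIF4EBP1 at 16 h at all 3 doses. The 3 nM peak of DDIT4 overlaps 8 h, and that of SESN2 overlaps 4 and 8 h. The 0.01 nM peak of SESN2 overlaps 8 h, with a step from 8 to 16 h of 0.08 (adjusted p = 0.303), and the 0.2 nM peak of EIF4EBP1 overlaps 24 h. Of the falling genes, SESN3 was highest at 1 h and lowest at 4, 16 and 24 h, and EIF4EBP2 was lowest at 4, 16 and 24 h. The low point of EIF4EBP2 overlaps 8 h at 0.01 nM and 24 h at 0.2 nM. SESN1 was lowest at 2, 4 and 4 h, with overlap between the 2 and 4 h libraries at 0.01 and 0.2 nM. For reference, the ISR gene TRIB3 peaked at 16, 8 and 24 h, the same times as SESN2. ASNS peaked at 16, 16 and 24 h, ATF4 itself at 8, 8 and 16 h, and DDIT3 (CHOP) at 2 h at all 3 doses. Peak libraries overlapped those of another time for TRIB3 and DDIT3 at 0.01 nM, ATF4 at 0.01 and 0.2 nM, and ASNS at 0.2 and 3 nM. The 2 h libraries of DDIT3 at 0.01 nM (48.6, 44.4 and 37.5 CPM) also overlapped untreated set 1, and its mean was 14.2 at 4 h.

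Between successive times at 0.01 nM, 3, 5, 5, 3 and 6 of the 6 genes changed in the steps from 1 to 2, 2 to 4, 4 to 8, 8 to 16 and 16 to 24 h, beside 28.2%, 31.2%, 28%, 33.5% and 23.6% of all genes. At 0.2 nM the counts were 5, 5, 4, 4 and 1, beside 29.7%, 35.3%, 31.7%, 33.3% and 10.2%, and at 3 nM 6, 6, 4, 4 and 2, beside 31.3%, 50.2%, 44.4%, 54.2% and 21.1%. Only SESN2 changed in the last step at 0.2 nM, and SESN2 and EIF4EBP2 did so at 3 nM. On TPM neither of the 3 nM steps passed (SESN2 0.15, adjusted p = 0.157, and EIF4EBP2 -0.14, adjusted p = 0.228). Set over the longer interval from 4 to 24 h, 6, 4 and 5 of the 6 changed at the 3 doses in rising order, beside 45.2%, 51.8% and 67.9% of all genes. At 0.01 nM all 6 rose over that interval, among them the 3 that had fallen by 4 h. At 3 nM, DDIT4, SESN3 and EIF4EBP2 fell and EIF4EBP1 and SESN1 rose.

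The change from 4 to 24 h was then compared between adjacent doses. Between 0.2 and 0.01 nM it differed for 5 of the 6 genes, beside 31.2% of all genes, and between 3 and 0.2 nM for 4, beside 36.2%. The largest difference of the 6 was that of SESN3, -1.55 (SE 0.149, adjusted p = 1.05e-12) between the lower doses, and -0.88 (SE 0.135, adjusted p = 3.27e-07) between the upper ones. The latter was -0.33 and did not pass on TPM. Between the upper doses EIF4EBP2 and EIF4EBP1 differed by -0.24 and 0.22 on counts. On TPM these were -0.21 (adjusted p = 0.0747) and 0.23 (adjusted p = 0.219), neither past the threshold. DDIT4 differed by -1.12 (SE 0.0821, adjusted p = 6.11e-17) between the lower doses, having risen at 0.01 nM from 4 to 24 h and fallen at 0.2 nM. SESN2 differed by -0.60 (SE 0.0764, adjusted p = 4.91e-09) between the lower doses and by 0.33 (SE 0.058, adjusted p = 4.53e-06), the other way, between the upper ones. SESN1 differed by 0.14 (95% interval -0.18 to 0.45, adjusted p = 0.583) and 0.17 (95% interval -0.12 to 0.45, adjusted p = 0.387), intervals that include 0 and values of up to 0.45.

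Doses were compared at the same time. From 1 to 24 h, 2, 3, 6, 4, 6 and 6 of the 6 differed between 0.2 and 0.01 nM, beside 0.759%, 9.89%, 24%, 36.7%, 44.9% and 51.5% of all genes. DDIT4 and SESN2 were higher at 0.2 nM at every time, by as much as 2.41 (95% interval 2.29 to 2.53, adjusted p = 1.1e-38) and 2.00 (95% interval 1.89 to 2.11, adjusted p = 1.58e-36) at 4 h, where the libraries were far apart. The SESN2 difference at 1 h, 0.26, lost the threshold in 5 of the runs that left out 1 library. EIF4EBP1 was higher from 4 h on, by 1.13 (95% interval 1.00 to 1.26, adjusted p = 1.35e-22) at 24 h. At 24 h the difference was -1.23 (95% interval -1.42 to -1.04, adjusted p = 2.41e-17) for SESN3 and -0.76 (95% interval -0.85 to -0.67, adjusted p = 1.08e-21) for EIF4EBP2, both lower at 0.2 nM. Both doses have the shallow depth, so these differences do not cross the depth sets.

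Between 3 and 0.2 nM, 3, 3, 5, 5, 3 and 4 of the 6 differed from 1 to 24 h, beside 27.3%, 36.1%, 36.8%, 38.2%, 45.7% and 56.1% of all genes. Of the 36 pairs 8 were higher and 15 lower at 3 nM, and 5 were lower without the low-count filter. DDIT4 was higher at 1 h, by 0.60 (95% interval 0.47 to 0.73, adjusted p = 1.09e-10), and at 8 h, by 0.19 (adjusted p = 0.0011), and lower at 2 h, by a difference of -0.14 (adjusted p = 0.0269) that turned to 0.07 with untreated sets of like depth. On TPM its 8 and 2 h differences were 0.14 (adjusted p = 0.183) and -0.20 (adjusted p = 0.0525), neither past the threshold. At 4, 16 and 24 h its difference was 0.08 (-0.01 to 0.18), 0.01 (-0.09 to 0.12) and -0.03 (-0.13 to 0.07), none past the threshold. SESN2 was higher from 4 h on, by 0.74 (95% interval 0.66 to 0.83, adjusted p = 5.62e-23) at 24 h, and SESN3 was lower at 24 h, with a difference of -0.62 (95% interval -0.82 to -0.42, adjusted p = 3.01e-07), after being higher at 4 h by 0.26 (adjusted p = 0.0215), which was 0.02 on TPM and did not pass. EIF4EBP2 was lower at all 6 times, with differences between -0.11 (2 h) and -0.39 (24 h), and those at 1, 2, 4 and 16 h did not pass without the low-count filter. EIF4EBP1 was lower at 1, 4 and 8 h, with differences of -0.25 (adjusted p = 0.0253), -0.20 (adjusted p = 0.0139) and -0.27 (adjusted p = 0.000154), of which that at 4 h turned to 0.04 with sets of like depth. At 24 h it differed by 0.02 (-0.09 to 0.12). SESN1 was lower at 4, 8, 16 and 24 h, with differences of -0.41, -0.23, -0.29 and -0.24. At 2 h SESN1 was higher by 0.295 (adjusted p = 0.0196), which was 0.02 on TPM and did not pass.

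This comparison crosses the depth sets, so it was repeated with each dose first set against the untreated set of like depth. Then 14 of the 36 were higher and 4 lower. SESN2 differed by 0.53, 0.45, 0.95, 0.76, 0.83 and 1.29 (95% interval 1.14 to 1.44, adjusted p = 1.65e-21) from 1 to 24 h, all past the threshold. DDIT4 was higher at 1, 4, 8 and 16 h, by 0.81, 0.29, 0.40 and 0.22, and at 2 h its sign turned, from -0.14 to 0.07. EIF4EBP1 was higher at 16 and 24 h, by 0.37 and 0.26, its 4 h sign turned, from -0.20 to 0.04, and its 1 and 8 h differences were -0.01 and -0.03, neither past the threshold. SESN3 and EIF4EBP2 at 24 h were lower here too, at -0.53 and -0.36. EIF4EBP2 did not pass at 2, 4 and 16 h. SESN1 stayed higher at 2 h, by 0.49, and its differences at 4, 8, 16 and 24 h did not pass. Which untreated set belongs to which dose is not in the labels, and a dose effect and a difference between the sets cannot be told apart where these values disagree.

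**Figure D4:**
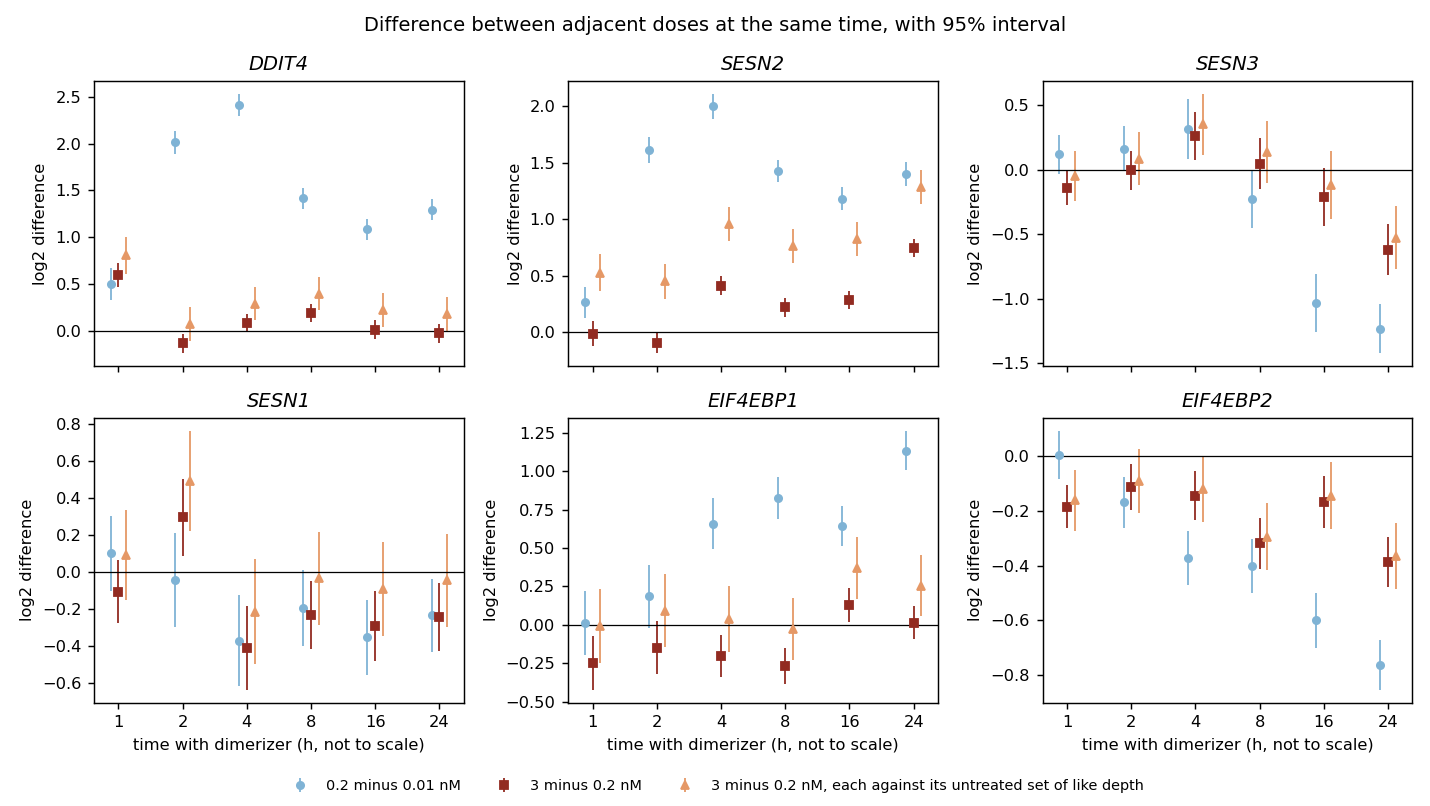
Log2 difference between adjacent doses (y axis) at each time (x axis, not to scale) for the 6 genes, with 95% intervals; circles are 0.2 minus 0.01 nM, squares 3 minus 0.2 nM, and triangles the latter with each dose first set against the untreated set of like depth. DDIT4 differs by 2.41 between the lower doses at 4 h and by 0.08 between the upper ones, and the SESN2 triangles lie above its squares.

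Other genes of the mTORC1 pathway, 59 in all, of which 58 could be tested, were read beside the 6. At 3 nM 24 h, 29 were higher and 18 lower, against 41.1% and 36% of all genes tested, with a median log2 change of 0.12 against 0.05 over all genes, and 6 changed at least 2-fold. At 0.2 nM 24 h, 22 were higher and 21 lower, against 34.3% and 31.2% of all genes, and at 0.01 nM 24 h 15 and 16, against 21% and 22.2%. On TPM the 0.01 nM counts became 23 and 0 and the lower count at 0.2 nM became 9. All 6 genes listed for the AMPK group, STK11 and 5 of the AMPK subunits, which act as an energy brake on mTORC1, were higher at 3 nM 24 h, with a median of 0.52. Of the 9 Rag and Ragulator genes, which tether mTORC1 to the lysosome, 1 was higher and 5 lower (median -0.21), and at 0.2 nM 24 h none was higher and 8 were lower. Of 9 genes of mTORC1 itself and the TSC-RHEB switch, 5 were higher and 2 lower. The 15 effectors split into 9 higher and 4 lower. The 19 genes of GATOR and amino acid sensing split into 8 higher and 7 lower at 3 nM 24 h. Of the AMPK group, 4 were higher and none lower at 0.2 nM 24 h, and 2 higher and 1 lower at 0.01 nM 24 h.

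The largest changes in that list were in the amino acid sensing arm, where sestrins also act. CASTOR1, the arginine sensor that restrains GATOR2, fell from a mean of 15.4 CPM untreated to 1.88 ± 0.772 at 3 nM 24 h (SD, n = 3), a change of -2.99 (SE 0.138, adjusted p = 1.32e-27). Its partner CASTOR2 fell from 7.57 to 1.45 ± 0.429, a change of -2.37 (SE 0.181, adjusted p = 6.48e-18). DEPTOR, an inhibitor bound to mTORC1, went from 2.55 to 0.912 ± 0.274 CPM, a change of -1.48 (SE 0.28, adjusted p = 4.35e-06), at a low level. In the other direction MIOS and SEH1L, subunits of GATOR2, rose by 1.32 (SE 0.0362, adjusted p = 1.17e-38) and 0.92 (SE 0.0353, adjusted p = 2.31e-31), MIOS from 43.3 to 108 ± 3.63 CPM. GRB10, an adaptor that mTORC1 phosphorylates and that dampens insulin receptor signalling, rose by 1.12 (SE 0.0329, adjusted p = 4.6e-37).

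At 0.2 nM 24 h the leading genes were partly the same. CASTOR1 fell by 1.49 to 5.33 ± 1.14 CPM, LAMTOR4, a Ragulator subunit, by 0.83 and FNIP2, a folliculin partner, by 0.73. LARP1, which represses translation of terminal oligopyrimidine mRNAs when mTORC1 is low, rose by 0.94, GRB10 by 0.88 and MIOS by 0.80. At 3 nM 24 h the corresponding changes were -1.05 for LAMTOR4, -0.89 for FNIP2 and 0.83 for LARP1. Among the 6 genes and this list at 3 nM 24 h, only CASTOR1, CASTOR2 and SESN3 fell by more than 2 on the log2 scale, and only SESN2, DDIT4 and EIF4EBP1 rose by as much.

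**Figure D5:**
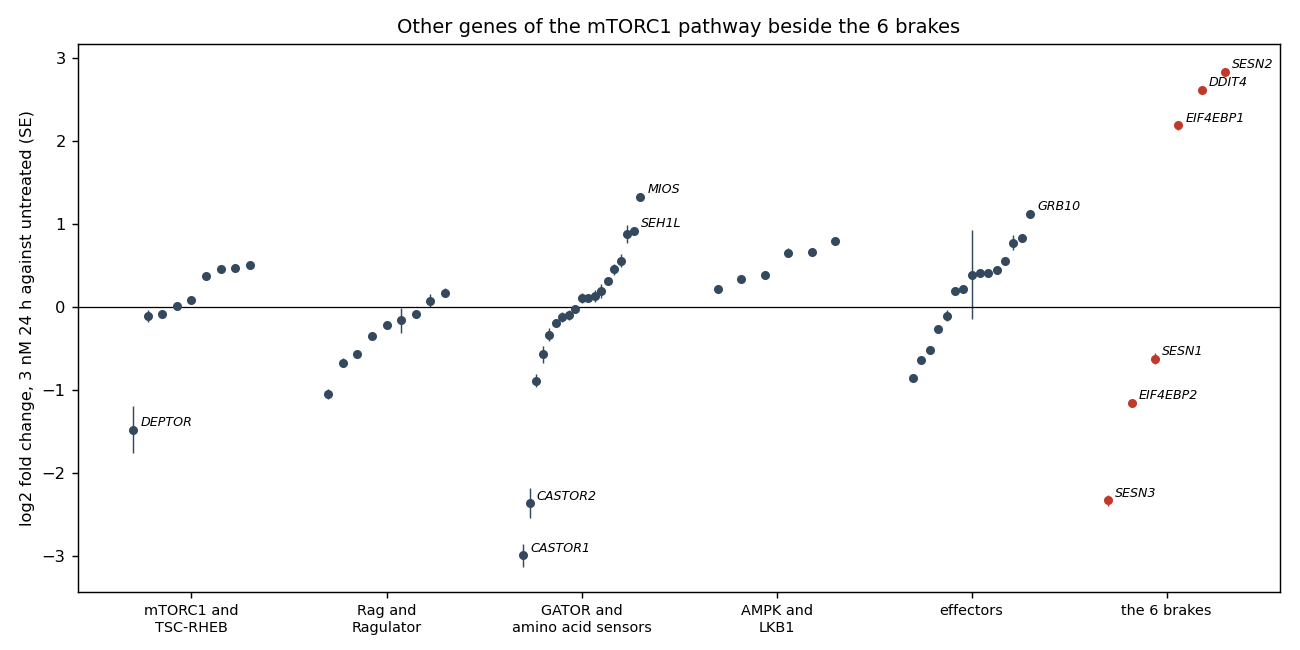
Log2 fold change at 3 nM 24 h against untreated (y axis, error bars are SE) of the tested genes of the mTORC1 pathway, ordered by value within 5 groups (x axis), beside the 6 genes in red. CASTOR1 at -2.99 and CASTOR2 at -2.37 lie lowest and SESN2 at 2.83 highest.

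For each gene the tested genes with the most similar course were found by Pearson's r of the 20 group means of log2 CPM, among 6169 genes with a mean of at least 4 CPM and a range of at least 1 on the log2 scale. The groups share libraries, controls and depth, so r is a description with no p. DDIT4 was closest to ADM2 (r = 0.988), SLC3A2 (0.965), which encodes a heavy chain of amino acid transporters, and CHAC1 (0.956), a glutathione-degrading enzyme. SESN2 was closest to CEBPG (0.975), an ATF4 partner, ASNSP1 (0.974), a pseudogene of ASNS, and MID1IP1 (0.972). EIF4EBP1 was closest to PYCR1 (0.993), a proline synthesis enzyme, TRAP1 (0.985), a mitochondrial chaperone, and IARS (0.984), an aminoacyl-tRNA synthetase. SESN3 was closest to ASAP3 (0.979), FAM13C (0.977) and CDKN1C (0.973), an inhibitor of cyclin-dependent kinases. SESN1 was closest to PANK1 (0.925), ZBED8 (0.897) and MSL1 (0.894), and EIF4EBP2 to MAGEE1 (0.977), TCTN2 (0.976) and HIST1H2BD (0.97). Within the 6, DDIT4 and SESN2 had r = 0.944, SESN2 and EIF4EBP2 r = -0.931, and SESN2 and SESN3 r = -0.77 over the same 20 means.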

How the data were processed

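RNA was sequenced from 60 libraries of U2OS Dmr-PERK cells in 20 groups of 3, grouped by the sample labels, which give the middle dose as 0.195 nM. Per the submitters' processing notes, which name Salmon 0.9.1, FastQC 0.11.5 and GRCh38 without roles, the authors made 2 tables. The deposited estimated counts per gene are not normalized, and 54.2% of them are whole within 1e-06. The deposited TPM values are scaled by the authors for length and depth. The annotation release and the use of strand are not given in the sources used here. No columns of other samples were present.

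Estimated counts were rounded and tested with edgeR 4.0.16 (R 4.3.3). Low genes were removed with filterByExpr and libraries scaled by TMM. One mean per group was fitted over all 60 libraries with glmQLFit, and contrasts were tested with glmQLFTest, two-sided, with Benjamini-Hochberg adjustment over the 18040 genes and a threshold of 0.05. Untreated is the mean of both sets' means. SE is the absolute log2 fold change over the square root of F and is approximate, and 95% intervals use 40 degrees of freedom. Replicates differed from one another beyond counting noise (chi-square over degrees of freedom 1.37 to 21.9, with the 2 libraries behind the highest values named in the results), so none was counted as a repeat deposit. Intervals cover the spread between libraries. A count of 3, the floor, is 0.536 CPM in the shallowest library and 0.145 in the shallowest deep one. The scripts were tested on simulated data for 3 nM 24 h against untreated with 18040 genes. Recovered were 36 of 50 genes changed 1.25-fold, 38 of 50 changed 1.5-fold, 49 of 50 changed 2-fold and 50 of 50 changed 4-fold. There were 9 false calls. In the simulation every gene had the same relative spread beyond counting noise, the untreated sets did not differ and only those genes changed. It therefore does not give the rate of false calls in the real libraries.

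Alternatives were DESeq2 1.42.0, its size factors, no low-count filter, limma 3.58.1 on log2(TPM + 1) and log2(TPM + 0.1), either untreated set alone, untreated sets of like depth, a replicate block, and leaving out each library. The 6 genes and all gene lists were chosen with earlier results of these data known. Named genes are the 6, the 3 pathway genes with the largest changes in each direction at 24 h at the upper doses, and the 3 genes closest in course to each of the 6. The promoter windows, the counts per TPM and the motifs CCAAT and ACGTG were examined after values had been seen. Gene positions are from GENCODE 29, which matched 57068 of 57665 identifiers, and promoter sequences are from RefSeq.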

Additional observations from a re-analysis of the deposited data

Results flagged for a closer look

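The change from 4 to 24 h differed between adjacent doses for several of the 6 genes, by edgeR's test of the difference itself (log2 scale, 3 libraries per group). Between 0.2 and 0.01 nM the differences were -1.548 for SESN3, a known FOXO target, -1.117 for DDIT4, -0.597 for SESN2, -0.391 for EIF4EBP2 and 0.474 for EIF4EBP1. SESN3, DDIT4, SESN2 and EIF4EBP2 thus went up more, or down less, at the lowest dose after 4 h, and EIF4EBP1 went up more at 0.2 nM.

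Between 3 and 0.2 nM the differences were -0.879 for SESN3, 0.332 for SESN2, -0.244 for EIF4EBP2 and 0.216 for EIF4EBP1. That of EIF4EBP1 was near the threshold (adjusted p = 0.0411 with edgeR) and passed it neither with DESeq2, nor with its size factors, nor on TPM, nor in 8 of the runs that left out 1 library. On TPM that of SESN3 was -0.33 and that of EIF4EBP2 -0.21 (adjusted p = 0.0747), and neither passed. The untreated sets do not enter these differences, and both times of a dose share its depth. The comparison of 3 with 0.2 nM still sets deep against shallow libraries.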

How the results depend on the processing

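Of the 97 calls against untreated, 50 between doses and 63 between times, all were kept in direction and call with DESeq2's size factors and with the replicate block, which gave 15 higher and 13 lower at 0.01 nM. The labels do not say what a replicate number shares. The correlation of deviations between same-numbered libraries had a median of 0.016 over 570 pairs (-0.39 to 0.386). For different numbers the median was -0.009 and the range overlapped (-0.359 to 0.298). Of 60 libraries, 33 correlated best with their own number. This is a hint of pairing from the data and not from the design, and it was not tested. DESeq2 kept 96, 48 and 62, no low-count filter 95, 37 and 61, and limma on log2(TPM + 1) 80, 41 and 53. Directions turned on TPM, with a pseudocount of 1 and then 0.1, for SESN3 at 0.2 nM 2 h (0.101 and 0.105), SESN1 at 0.2 nM 8 h (0.116 and 0.126) and SESN1 at 3 nM 1 h (0.059 and 0.064). With untreated set 1 alone, which is also its set of like depth, SESN2 at 0.01 nM 2 h was -0.127. With like-depth sets, 3 minus 0.2 nM was 0.072 for DDIT4 at 2 h and 0.04 for EIF4EBP1 at 4 h. Lower calls on TPM, with either pseudocount, were 7 at 0.01 nM and 10 at 0.2 nM. Of the comparisons of 3 with 0.2 nM, 5 were higher on log2(TPM + 1), 5 were lower without the filter, and 14 were higher and 4 lower with like-depth sets. For pathway genes on log2(TPM + 1), lower calls were 13 at 0.01 nM 4 h, 14 at 0.2 nM 4 h, 14 at 3 nM 4 h and 9 at 0.2 nM 24 h, and 23 were higher and 0 lower at 0.01 nM 24 h. The cause was not tested.

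Leaving out each library in turn gave 13 to 15 higher and 12 to 15 lower calls at 0.01 nM, 17 and 15 to 16 at 0.2 nM, and 16 to 17 and 18 to 19 at 3 nM. The peak of SESN2 at 3 nM was at 8 h on TPM and without the first 8 h library and at 24 h otherwise. That of EIF4EBP2 at 0.01 nM was at 1 h by group medians and without 1 of 3 libraries (1 h replicate 2, 24 h replicates 2 and 3) and at 24 h otherwise. That of EIF4EBP1 at 0.2 nM was at 24 h without the first 24 h library and at 16 h otherwise. In the shallow libraries, SESN1 rested on as few as 59 counts, which limits its smaller changes.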

Other observations

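SESN3 stood apart in the relation between its 2 deposited units. Counts per TPM follow the average transcript length that the estimation assigned to a gene, and they were set relative to the median gene and to untreated over 12886 genes with at least 10 counts in every library. The SESN3 ratio was 0.606 ± 0.0847 at 0.2 nM 4 h, where 23 of the 12886 genes were at or below it (SESN3 included), 0.661 ± 0.0736 at 3 nM 4 h (21 genes) and 0.603 ± 0.0539 at 3 nM 24 h (35 genes), with SD over 3 libraries. Untreated sets were at 0.968 ± 0.0874 and 1.01 ± 0.0486. No transcript-level values were used here, and the cause was not tested.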
